A study of Mus musculus with 8 samples.

Results

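Plasma cells are antibody-secreting cells, and the 10 genes described here encode parts of the program that lets them secrete: the transcription factors Xbp1 and Prdm1, the surface proteins Sdc1 and Tnfrsf17, the endoplasmic reticulum (ER) folding proteins Mzb1, Hspa5 and Pdia4, the signal peptidase subunit Sec11c, and the ER-associated degradation genes Derl3 and Herpud1. The genes were chosen by name, and all 10 were listed in 6 of the 8 count tables, which together list 24405 genes. The kidney parenchymal table did not list Tnfrsf17 and the kidney PBMC table did not list Derl3, so that each had 9, and a gene not listed was counted as 0 there. Levels were compared between cells with at least 5 UMIs (unique molecular identifiers, which count captured transcripts) of Jchain and 4 other cell classes of the same libraries. Jchain encodes the chain that joins subunits of secreted IgM and IgA.

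A plasma cell makes large amounts of immunoglobulin, which enters the ER as it is translated, is trimmed and folded there, and is degraded through the cytosol when folding fails. The load of unfolded protein activates ER sensors in the unfolded protein response, and the spliced form of Xbp1 then drives many genes for folding, translocation and degradation. Prdm1 encodes Blimp-1, which represses the B cell program during plasma cell differentiation. In a graft, plasma cells are known as a source of antibody against donor antigens.

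Livers, hearts and kidneys of BALB/c mice had been placed in C57BL/6J recipients without immunosuppression, and cells were taken on day 7 after transplantation. Liver grafts were orthotopic, and heart and kidney grafts were additional to the native organs. Microwell-seq, a single-cell method in which cells settle into microwells with barcoded beads, gave 1 library each of blood mononuclear cells (PBMC) and tissue-infiltrating lymphocytes (TIL) for the 3 organs, and of parenchymal cells for liver and kidney. All groups were labelled male, 8 weeks old and BALB/c, which is the strain of the donors. The study's methods name more than 1 recipient for each organ, and which animals gave each library was not stated. With 1 library for each condition there was no test between organs or compartments.

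Of 10000 barcodes in each library, between 795 (kidney parenchymal) and 10000 (liver parenchymal) held at least 500 UMIs and were used as cells, with total UMIs per library of 3418722 to 19171264. Jchain-high cells numbered 94 in labelled heart TIL (0.972% of cells), 124 in liver parenchymal (1.24%) and 981 in labelled liver TIL (10.5%). The other 5 libraries held between 0 and 4 such cells. The share in labelled liver TIL depends on the gate. Of its 981 cells, 526 held 5 to 9 Jchain UMIs, and 515 further cells held 4, against 10 in labelled heart TIL and 25 in liver parenchymal. Organ markers went against the labels of both TIL libraries: the hepatocyte gene Alb had 1056 UMIs in labelled heart TIL and 0 in labelled liver TIL, while the muscle gene Acta1 had 1 and 206. These libraries are therefore called by their labels only, and results are also given without them. Between 1 and 600 barcodes were shared by each pair of libraries, including 188 of the 981 Jchain-high barcodes in labelled liver TIL (19.2%, against 15.9% of all its cells), 8 of 94 in labelled heart TIL and 8 of 124 in liver parenchymal.

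The markers set for plasma cells were all detected in the Jchain-high cells of the 3 libraries (15 of 15 in each). Immunoglobulin genes made up 20.5% of UMIs in Jchain-high cells of labelled heart TIL, 16.7% in liver parenchymal and 18.3% in labelled liver TIL, against 0.398%, 0.276% and 1.90% in T cells of the same libraries. Genes of other cell types were also present in the Jchain-high sums. All 11 T cell markers and all 8 macrophage or monocyte markers were detected in each, at summed levels of 2726 to 3960 and 5038 to 10250 CPM (counts per 1e6 UMIs of the class), and 7, 10 and 9 of 10 neutrophil markers summed to 2526, 5062 and 5360 CPM in labelled heart TIL, liver parenchymal and labelled liver TIL. The B cell genes Pax5 and Fcer2a were at 0 in 2 of the 3 libraries. At least 2 UMIs of the T cell genes Cd3d, Cd3e and Cd3g were found in 38.3% of Jchain-high cells in labelled heart TIL, 44.4% in liver parenchymal and 32.1% in labelled liver TIL, below the 52.5%, 67.0% and 35.8% of all cells there. The B cell gate of at least 2 UMIs of Cd79a and Cd79b was passed by 1.06%, 19.4% and 1.53% of Jchain-high cells in the same order, against 0.114%, 1.04% and 0.300% of all cells, so that the share was highest in liver parenchymal, the library that held both classes of the B cell comparison. In labelled liver TIL, erythroid genes reached 42503 CPM in the Jchain-high cells. No doublet caller was run, and the part of mixed wells in the levels below was not tested beyond leaving out the cells that carry such genes.

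Known regulatory sequences of the unfolded protein response were searched just before the start of transcription. The ER stress response element (ERSE) was searched as CCAAT and CCACG with 9 bases of any kind between them, and its second form ERSE-II as ATTGG and CCACG with 1 base between them. ATF6 and XBP1 are known to act through these elements, and XBP1 through the UPRE, whose core was searched as TGACGTG. Letters of these motifs were searched on both strands in the 250 bases before the start of 8 of the 10 genes, in RefSeq sequence of build GRCm38.p6. Mzb1 and Sec11c were not among the promoters searched, so that nothing can be said of motifs there. The 3 promoters with a full element are shown, with capitals for the fixed letters of ERSE in Hspa5 and Derl3 (in Derl3 on the opposite strand), of ERSE-II in Herpud1 and of the UPRE core in Hspa5. They lie at chr2:34771840-34772089 (Hspa5), chr10:75893148-75893397 (Derl3) and chr8:94386179-94386428 (Herpud1), each on the plus strand and upstream of the first exon.
Hspa5: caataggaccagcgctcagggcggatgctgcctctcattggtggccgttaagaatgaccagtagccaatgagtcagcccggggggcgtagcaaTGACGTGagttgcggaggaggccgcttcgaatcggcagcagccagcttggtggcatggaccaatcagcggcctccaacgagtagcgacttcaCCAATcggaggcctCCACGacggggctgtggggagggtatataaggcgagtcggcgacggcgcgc
Derl3: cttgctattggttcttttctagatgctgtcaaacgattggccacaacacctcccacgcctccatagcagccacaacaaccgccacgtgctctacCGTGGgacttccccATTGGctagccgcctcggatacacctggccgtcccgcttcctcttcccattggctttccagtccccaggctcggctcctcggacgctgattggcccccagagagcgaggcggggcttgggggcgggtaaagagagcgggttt
Herpud1: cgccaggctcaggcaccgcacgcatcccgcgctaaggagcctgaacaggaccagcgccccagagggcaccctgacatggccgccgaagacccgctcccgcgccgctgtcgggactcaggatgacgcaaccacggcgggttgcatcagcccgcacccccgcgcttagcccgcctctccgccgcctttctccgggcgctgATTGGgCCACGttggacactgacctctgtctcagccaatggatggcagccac

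ERSE was found in 37 of 32851 mouse promoters of this length (0.113%), and Hspa5 (bases -65 to -47 from the start) and Derl3 (-156 to -138) were among them. ERSE-II was found in 10 promoters (0.0304%), among them Herpud1 (-52 to -42). The UPRE core was found in 542 (1.65%), among them Hspa5 (-157 to -151). The short parts were common, with CCAAT in 33.9% and CCACG in 28.3%. These parts lie within each full element, so that the counts overlap. Among the 8 genes, 6 held CCAAT and 5 held CCACG, while Xbp1 and Tnfrsf17 held no match to any of these motifs in this window. The windows of Prdm1 and Tnfrsf17 lay inside the annotated genes, so that any start further upstream was not searched.

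**Figure D1:**
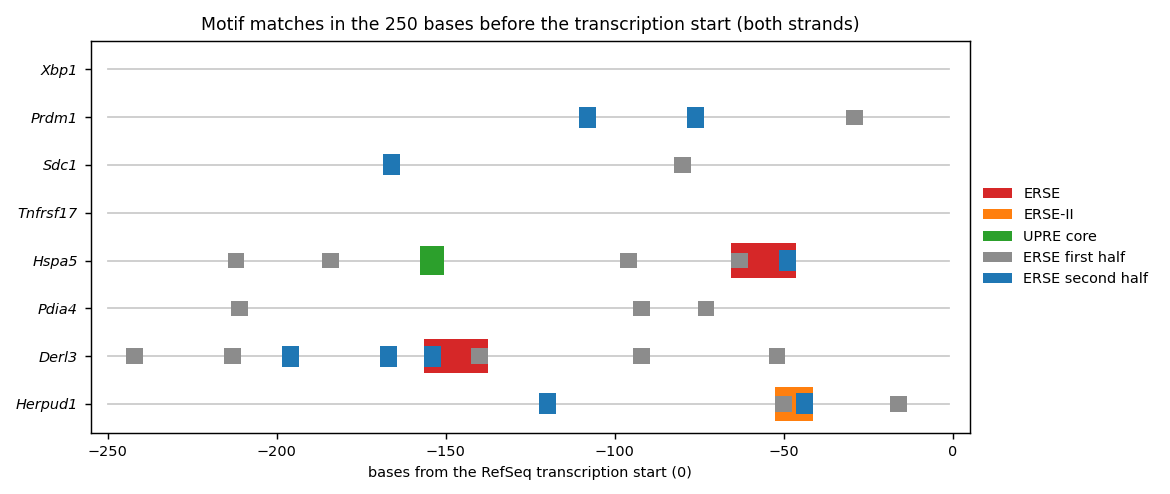
Motif matches in the 250 bases before the transcription start of 8 genes, with the distance from the start in bases on the x axis and a gene on each line. ERSE is seen in Hspa5 at -65 to -47 and in Derl3 at -156 to -138, and ERSE-II in Herpud1 at -52 to -42; Xbp1 and Tnfrsf17 hold no match.

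The level of each gene was then given for each class of cells as CPM of the summed UMIs. These are tags from transcript ends, which means that levels do not scale with transcript length. B cells were taken as cells with at least 2 UMIs of Cd79a and Cd79b, T cells with at least 2 of Cd3d, Cd3e and Cd3g, macrophages with at least 1 of Csf1r, and neutrophils with at least 3 of Csf3r, Cxcr2, Retnlg and Mmp9. Each of these had at most 1 Jchain UMI and passed a single gate. The single-gate rule left out 6334 cells with at most 1 Jchain UMI that passed several gates. It lowered the B cells from 278 to 0 in heart PBMC, from 380 to 56 in liver PBMC and from 71 to 21 in liver parenchymal. Sums of at least 20 cells were available for Jchain-high cells in 3 libraries, B cells in 2 (21 cells of liver parenchymal and 56 of liver PBMC), T cells in 7, macrophages in 7 and neutrophils in 6. Counting intervals below are exact Poisson 95% intervals and cover counting error only.

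Among the 10 genes in Jchain-high cells, Mzb1, a chaperone of immunoglobulin assembly, was at the highest level, followed by Xbp1, Sec11c, Hspa5, Pdia4, Derl3, Herpud1, Sdc1, Tnfrsf17 and Prdm1, and this order held in all 3 libraries. Not all neighbours in it differed beyond counting error. Derl3 and Herpud1 overlapped in labelled liver TIL, at 214 CPM (interval 186 to 246) and 210 CPM (183 to 241), and in labelled heart TIL (189 to 394 and 152 to 341), but not in liver parenchymal (299 to 442 and 179 to 294). The intervals of Xbp1 and Sec11c, of Pdia4 and Derl3, of Sdc1 and Tnfrsf17, and of Tnfrsf17 and Prdm1 overlapped in all 3 libraries, and those of Herpud1 and Sdc1 in labelled heart TIL.

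Xbp1 stood at 2678 CPM in Jchain-high cells of labelled heart TIL, 2032 in liver parenchymal and 1512 in labelled liver TIL. It was 188 and 189 CPM in the B cell sums, 56.2 to 241 in T cells, 107 to 477 in macrophages and 93.8 to 403 in neutrophils. The lowest Jchain-high value was thus above the highest of any other class, the macrophages of liver PBMC. Within a library, Jchain-high cells carried 6.28 to 20.6 times the Xbp1 level of T cells. They carried 10.8 times that of the B cells of liver parenchymal, which held 5 Xbp1 UMIs. Neutrophils, which do not secrete antibody, held 403 CPM in labelled liver TIL from 19 UMIs, 377 in heart PBMC and 330 in liver PBMC.

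Prdm1 was at 26.9 CPM (3 UMIs), 44.9 CPM (13 UMIs) and 24.6 CPM (24 UMIs) in the Jchain-high cells of labelled heart TIL, liver parenchymal and labelled liver TIL. It was the gene with the least separation. T cells ranged from 0 to 20.4 CPM, neutrophils from 1.62 to 25.9 and macrophages from 0 to 53.4, where the highest value rests on 1 UMI in kidney PBMC. Jchain-high cells overlapped the macrophage and neutrophil classes and lay just above the T cells. In liver parenchymal, 48.5% of the 328 Prdm1 UMIs were in T cells and 3.96% in Jchain-high cells, which held 40.6% and 1.51% of all UMIs. In labelled heart TIL the shares of Prdm1 were 51.2% and 2.44% (43.4% and 1.22% of all UMIs), and in labelled liver TIL 13.7% and 20.5% (17.8% and 11.8%).

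Sdc1 encodes syndecan-1 (CD138), the surface proteoglycan used to recognise plasma cells. It was at 80.6 CPM in labelled heart TIL, 104 in liver parenchymal and 51.3 in labelled liver TIL. Other classes reached at most 17.3 CPM, in the neutrophils of labelled heart TIL, from 2 UMIs. Tnfrsf17 encodes BCMA, the receptor through which BAFF and APRIL sustain long-lived plasma cells, and stood at 62.7, 58.7 and 32.8 CPM in the same order of libraries. Tnfrsf17 was at 0 in the T cells of 4 of 7 libraries and the macrophages of 5 of 7. Its highest value elsewhere was 21.2 CPM in the neutrophils of labelled liver TIL, from 1 UMI. The macrophage sums of kidney TIL, kidney parenchymal and kidney PBMC, all at 0, held 45422, 32695 and 18734 UMIs. Their floors of 3 UMIs lay above every Jchain-high level of Tnfrsf17, so that they cannot show a difference. Neither gene had a UMI in the B cell sums, where the floor of 3 UMIs was 113 and 80.7 CPM, so that a lower level in B cells was not detectable at this depth.

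**Figure D2:**
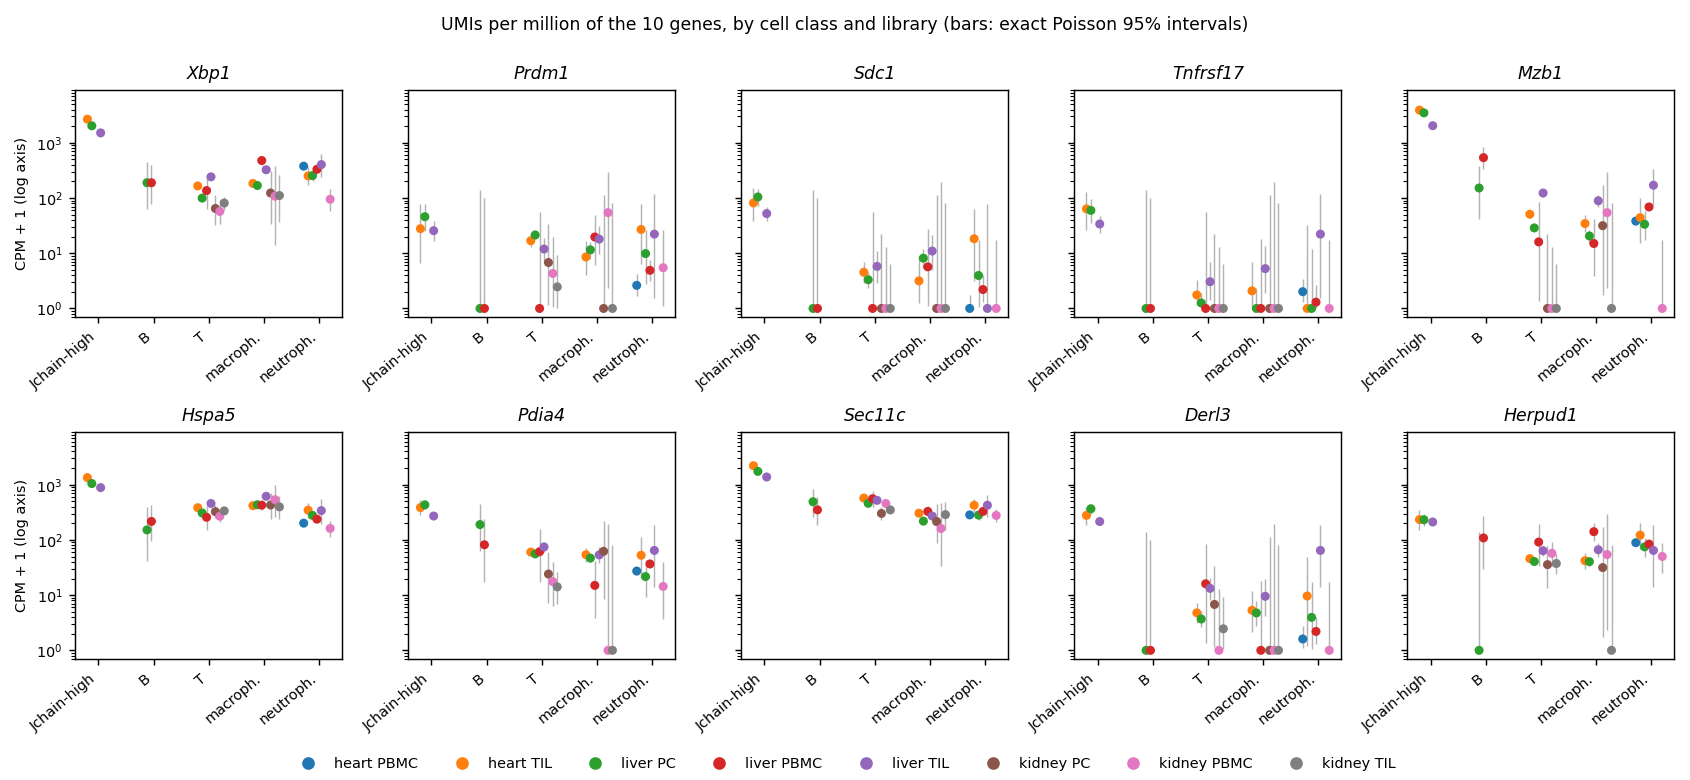
Level of each gene in 5 cell classes, with a panel for each gene, CPM + 1 on a log axis and a point for each library sum of at least 20 cells; bars are exact Poisson 95% intervals. The 3 Jchain-high sums of Mzb1 lie between 2040 and 3914 CPM, above every other class, while the Prdm1 sums of Jchain-high cells, 24.6 to 44.9 CPM, overlap macrophages and neutrophils.

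Mzb1 was at 3914 CPM in labelled heart TIL, 3485 in liver parenchymal and 2040 in labelled liver TIL. Other classes were far lower, with 151 and 538 CPM in B cells, 0 to 122 in T cells, 0 to 88.1 in macrophages and 0 to 169 in neutrophils. The highest values of T cells, macrophages and neutrophils were all in labelled liver TIL. Jchain-high cells held 49.3% of all Mzb1 UMIs in labelled heart TIL, 62.8% in liver parenchymal and 61.5% in labelled liver TIL, while they held 1.22%, 1.51% and 11.8% of all UMIs there.

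Hspa5 encodes BiP, the ER Hsp70 chaperone that binds unfolded chains and holds the stress sensors inactive. It was at 1343, 1049 and 885 CPM in Jchain-high cells of labelled heart TIL, liver parenchymal and labelled liver TIL. Unlike Mzb1, it was present in every sum of every class, with 151 and 215 in B cells, 256 to 457 in T cells, 396 to 616 in macrophages and 161 to 346 in neutrophils. Jchain-high cells were above all of these, at 1.94 to 3.51 times the T cells of the same library. Pdia4, an ER protein disulphide isomerase, was at 385, 431 and 270 CPM against 189 and 80.7 in B cells and at most 73.7 elsewhere.

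Sec11c, a catalytic subunit of the complex that removes signal peptides, was at 2212, 1743 and 1380 CPM in Jchain-high cells of the 3 libraries. It was also widely present, at 350 and 490 CPM in B cells, 301 to 572 in T cells, 160 to 327 in macrophages and 277 to 424 in neutrophils. Its levels in Jchain-high cells were 2.65 to 3.86 times those of T cells within a library. Every Jchain-high sum was above every sum of the other classes.

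Derl3, a derlin of the channel that returns misfolded chains to the cytosol, was at 278, 366 and 214 CPM in Jchain-high cells. It was at 0 in both B cell sums and at 15.1 CPM or less in T cells and 8.53 or less in macrophages. Neutrophils of labelled liver TIL held 63.6 CPM, from 3 UMIs and thus at the floor, against 0 to 8.64 in the other neutrophil sums. Herpud1, a membrane protein that organises the same degradation complex, was at 233, 231 and 210 CPM, with the smallest ratio of highest to lowest among the 10 genes. Its levels elsewhere were 0 and 108 CPM in B cells, 34.7 to 90.3 in T cells, 0 to 140 in macrophages and 49.1 to 121 in neutrophils, so that the separation was smaller than that of Derl3.

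To ask whether these differences exceed the spread between libraries, sums per library and class were fitted with edgeR's quasi-likelihood test, with the library as a term and adjustment over all 6391 genes tested. The 4 contrasts share the Jchain-high sums, so that they are given side by side. Against T cells, 9 of the 10 genes were higher and none lower, where 5.07% of all genes tested were called higher and 3.69% lower. Against macrophages all 10 were higher and none lower (11.4% and 11.8% of all genes), and against neutrophils 9 and none (8.51% and 12.2%). These counts and that against T cells include Tnfrsf17, Derl3 and Sdc1, and the count against macrophages also Prdm1. Those genes passed the filter on low counts through high Jchain-high sums, so that their calls add no separate support. Against B cells, 5 were higher and none lower (1.46% and 0.454% of all genes). At an unadjusted p under 0.05, 8 of the 10 differed from B cells and all 10 from each of the other classes, as did 837, 1232, 2170 and 2087 of the 6391 genes against B cells, T cells, macrophages and neutrophils.

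Mzb1 had a log2 fold change of 6.26 against T cells (standard error 0.38, adjusted p = 1.04e-16), 6.65 against macrophages (0.39, 3.65e-17) and 5.69 against neutrophils (0.43, 2.26e-13). Derl3 was at 6.05, 5.98 and 4.96, and Tnfrsf17 at 6.08, 5.46 and 4.34, with an error of 1.17 in the last from few UMIs. Over all T cell, macrophage and neutrophil sums Tnfrsf17 had 8, 4 and 7 UMIs, Derl3 57, 20 and 12, and Sdc1 39, 29 and 7. Tnfrsf17, Derl3 and Sdc1 passed the filter on low counts through the Jchain-high sums. Prdm1 passed it through the Jchain-high sum of liver parenchymal (44.9 CPM) together with the macrophages of kidney PBMC (53.4 CPM). That these genes were tested at all thus already depended on a high level in Jchain-high cells. The Tnfrsf17 values hung on single libraries: they were 5.07, 3.98 and 2.72 without liver parenchymal (adjusted p = 0.212 in the last) and 7.03, 7.44 and 7.42 without labelled liver TIL. Xbp1 rose by 3.98, 3.28 and 2.93 on the log2 scale, Sdc1 by 4.75, 3.62 and 3.89, and Pdia4 by 2.75, 3.03 and 2.96. With each library left out, the difference from neutrophils ranged from 3.61 to 6.60 for Derl3 and from 2.94 to 4.71 for Sdc1. Without liver parenchymal, Sdc1 was not called against neutrophils. Smaller differences were found for Sec11c (1.99, 2.84 and 2.34), Herpud1 (2.38, 2.27 and 1.80) and Hspa5 (1.70, 1.32 and 1.84, with adjusted p = 5.24e-09, 1.54e-06 and 7.09e-09). For Prdm1 the log2 differences were 1.23 against T cells (0.41, adjusted p = 0.0539), 1.53 against macrophages (0.45, 0.0104) and 1.70 against neutrophils (0.66, 0.0602). The call against macrophages did not hold with DESeq2 (adjusted p = 0.0527), without the library term (0.245), without both TIL libraries (0.0780) or without liver parenchymal (0.309).

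**Figure D3:**
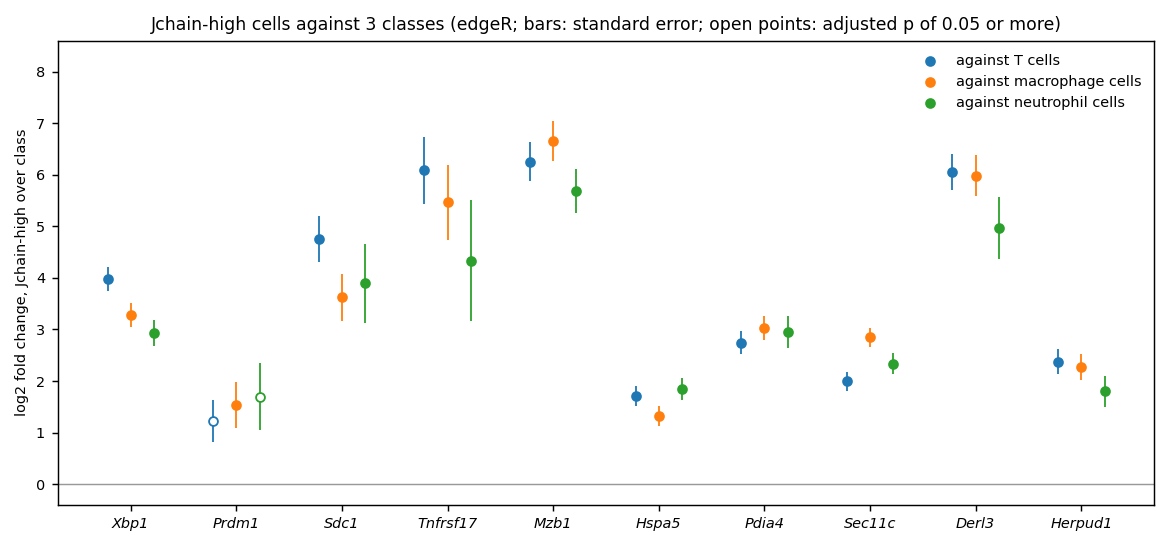
Log2 fold change of each gene in Jchain-high cells over T cells, macrophages and neutrophils from the edgeR fit; bars are standard errors and open points have an adjusted p of 0.05 or more. Mzb1, Derl3 and Tnfrsf17 lie between 4.34 and 6.65, while Hspa5 and Prdm1 lie between 1.23 and 1.84, with Prdm1 open against T cells and neutrophils.

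Against B cells, the genes called higher were Xbp1 (log2 fold change 4.16, standard error 0.47, adjusted p = 1.48e-07), Mzb1 (3.50, 0.59, 1.73e-04), Hspa5 (2.79, 0.41, 2.00e-05), Sec11c (2.55, 0.33, 1.64e-06) and Herpud1 (2.79, 0.69, 0.0194). Pdia4 differed by 1.76 (0.54, adjusted p = 0.0900). Derl3, Sdc1, Tnfrsf17 and Prdm1 had no UMI in either B cell sum, and their adjusted p values were 0.0506, 0.307, 0.565 and 0.428. In liver parenchymal, where both classes were present, Derl3 was at least 3.23-fold and Herpud1 at least 2.04-fold higher than the B cell floor of 3 UMIs per library (113 CPM). For the other 3 genes without a B cell UMI, Jchain-high levels were under that floor, and no fold was given. This contrast rests on 2 B cell sums of 77 cells in all, and the number of genes called was 3 with DESeq2 (Hspa5, Sec11c and Xbp1; 44 of all 6391 genes), 2 without liver parenchymal (Sec11c and Xbp1; 19 of 6729) and 7 without both TIL libraries (89 of 6883). Without liver parenchymal no library held both classes. The B cells were then those of liver PBMC alone, from blood, and the Jchain-high cells those of the TIL libraries. Cell class and compartment could thus not be told apart in that fit. The log2 difference of Mzb1 was 2.07 and that of Herpud1 2.15 there. Without liver PBMC, Mzb1 was at 4.71, and Herpud1 then had no B cell UMI and an adjusted p of 0.0504. With B cells taken by Cd79a, Cd79b and Jchain alone, an alternative chosen after seeing the data, all 8 of the 8 genes that passed the filter on low counts were higher, as were 195 of all 5468. The cells added to this B class all passed another gate too, as with all 278 in heart PBMC. The part of mixed wells in this contrast was not tested.

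The lowest Jchain-high sum was above every sum of the other class for all 10 genes against B cells and T cells and for 9 against macrophages and neutrophils, Prdm1 being the exception. The same was true of 19.2%, 3.15%, 3.13% and 8.29% of all genes tested. Tnfrsf17, Derl3, Sdc1 and Prdm1 were among the genes tested through high Jchain-high sums. For Prdm1, Sdc1 and Tnfrsf17 the count against B cells rests on 2 sums at 0, whose floors of 113 and 80.7 CPM lie above most or all of the Jchain-high levels, and cannot show a difference. Some other sums at 0 had floors above some or all of these levels too, as with 63.6 CPM in the neutrophils of labelled liver TIL for Sdc1 and 45.2 CPM in the T cells of liver PBMC for Prdm1. Leaving out both TIL libraries left a single Jchain-high sum, that of liver parenchymal. The fit then assumed that it varies like the other classes, and called 9 of the 10 genes higher than in T cells, 9 than in macrophages and 10 than in neutrophils, where 232, 366 and 276 of 6883 genes were called higher. Without the Jchain-high cells that carried T cell, macrophage or neutrophil gate genes, 9, 10, 9 and 7 of the 10 were higher than in T cells, macrophages, neutrophils and B cells, where 289, 417, 391 and 87 of 5496 genes were. With barcodes shared between libraries left out, an alternative chosen after seeing the data, 9 genes passed the filter on low counts, and 9, 9, 9 and 7 of them were higher, where 341, 596, 498 and 123 of 5934 genes were.

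Other genes of the secretory pathway were given by lists. Of all 6391 genes tested, 5.07% were higher than in T cells, 11.4% than in macrophages, 8.51% than in neutrophils and 1.46% than in B cells. The shares lower were 3.69%, 11.8%, 12.2% and 0.454%. The counts of each list below are to be read beside these shares. Against B cells the median log2 difference of all genes was 0.39. Of 23 tested ER chaperones and foldases, 21 were higher than in T cells, 19 than in macrophages, 20 than in neutrophils and 11 than in B cells, and none was lower. Their median log2 difference from T cells was 1.62, against -0.06 for all genes tested. Fkbp11, an ER prolyl isomerase (5.48 against T cells, adjusted p = 1.47e-18), Txndc5, a disulphide isomerase (3.67, 1.06e-17), Creld2, a secreted ER stress gene (3.01), and Hsp90b1, the ER Hsp90 chaperone (2.73), were the clearest. The same 4 genes had the lowest p against macrophages and neutrophils too, while against B cells Ppib took the place of Fkbp11.

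Of 21 genes of the translocon and signal peptidase, 16, 17, 17 and 9 were higher than in T cells, macrophages, neutrophils and B cells. Among them were Srprb, a subunit of the signal recognition particle receptor (2.53 against T cells), the signal peptidase subunit Spcs3 (1.90), and Ssr4 and Ssr2, which belong to the translocon-associated complex (1.77 and 1.76). All 10 genes of the oligosaccharyltransferase, which puts the N-linked sugar on new chains, were tested. Of these, 7, 9, 9 and 5 were higher, led by Rpn1 (1.90 against T cells) and Ddost (1.47). Median log2 differences from T cells were 1.19 for the translocon list and 1.16 for the transferase list.

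Of 11 genes of ER-associated degradation, 8, 8, 9 and 4 were higher than in T cells, macrophages, neutrophils and B cells. Edem1 and Edem2, which mark misfolded glycoproteins, differed from T cells by 3.20 and 2.34 on the log2 scale, the ubiquitin-conjugating enzyme Ube2j1 by 2.23 and Sel1l, the adaptor of the Hrd1 ligase, by 2.32. For transport from ER to Golgi, 15, 16, 15 and 4 of 22 genes were higher, with a median log2 difference of 0.75 from T cells. Lman1, the cargo receptor of the early pathway, led the list (3.20), with Kdelr2 at 1.52. Mcfd2, the partner of Lman1, was lower than in macrophages (-0.83, adjusted p = 0.0442).

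Of the 12 listed sensors and transcription factors of the unfolded protein response, 6 passed the filter on low counts. Of these, 2 were higher than in T cells, the membrane-bound factors Atf6b (1.14, adjusted p = 0.00362) and Atf6 (1.43, 0.00367). Atf4 (0.60, 0.0995) and Ddit3, which encodes the stress factor CHOP (0.54, 0.354), did not pass. Against neutrophils, 3 were lower, with Ppp1r15a, which restores translation after stress, at -1.56 (adjusted p = 7.90e-04), Atf3 at -1.95 (0.00146) and Ddit3 at -1.49 (0.00188), and Atf6b was higher (1.29). Against macrophages, Atf3 was lower (-1.70) and Atf4, Atf6b and Atf6 were higher (0.79, 0.93 and 0.97), and against B cells none passed. DESeq2 and the fit without TMM scaling also called 3 of the 6 lower than in neutrophils.

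Plasma cell regulators and surface genes other than the 10, a list that also holds Edem1, were higher in 8, 9, 8 and 4 of 14. Eaf2, an elongation factor partner (5.88 against T cells), Pou2af1, the B lineage coactivator (4.56), and Ccr10, the receptor for homing to mucosal surfaces (4.53), were among them. Cd38 was lower than in macrophages (-1.64) and Cxcr4 lower than in neutrophils (-1.95). B cell identity genes went the other way against B cells, with 6 of 17 lower and none higher, including Fcmr, an IgM receptor (-4.22), Cd37 (-2.27) and the antigen presentation gene H2-Aa (-1.92). Of 14 cell cycle genes, 10 were higher than in macrophages and 4 than in neutrophils, and none passed against T cells or B cells. The sign of each list's median was the same with DESeq2 and without TMM.

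The share of cells with at least 1 UMI was compared after thinning each cell to 500 UMIs, since Jchain-high cells were deeper than T cells (median UMIs 1035, 1894 and 841 against 837, 1486 and 770). Mzb1 was found in 72.3%, 68.5% and 44.8% of thinned Jchain-high cells of labelled heart TIL, liver parenchymal and labelled liver TIL, and in 2.41%, 1.59% and 6.94% of T cells. Before thinning it was found in 85.1%, 88.7% and 57.5% of Jchain-high cells and in 4.42%, 4.84% and 10.3% of T cells. T cells are taken here as the background, since RNA freed from other cells gives UMIs in cells that do not express a gene. Derl3 was found in 14.9%, 14.5% and 9.38% of Jchain-high cells, against 0.199%, 0.169% and 0.706% of T cells.

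For genes that all cells use, the contrast in shares was smaller, with Hspa5 in 39.4%, 31.5% and 31.3% of Jchain-high cells against 16.2%, 14.0% and 19.1% of T cells. Prdm1 was found in 2.42% of thinned Jchain-high cells against 1.06% of T cells in liver parenchymal and in 0.917% against 0.642% in labelled liver TIL. In labelled heart TIL it was found in 0 of 94, which allows a share of cells with a UMI at this depth of up to 3.19%, against 0.720% of T cells. The exact binomial intervals overlapped in each library. A thinned Jchain-high cell held a mean of 2.88 of the 10 genes in labelled heart TIL, 2.53 in liver parenchymal and 1.96 in labelled liver TIL. The mean was between 0.235 and 0.768 in the 22 other sums. None of the 10 genes was found in 1.06%, 8.87% and 19.4% of Jchain-high cells.

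It was assumed, and not tested, that the genes of free RNA from 1 source keep their ratio to each other in every cell type. UMIs in T cells and macrophages were therefore set against the number expected if they held each gene at its ratio to the light chain gene Igkc in Jchain-high cells of the same library. For Mzb1 this ratio of observed to expected UMIs was 0.38 to 0.56 and for Derl3 0.35 to 0.90, both below 1. For Hspa5 it was 4.03 to 35.0, for Sec11c 1.74 to 13.2, for Herpud1 2.33 to 14.5 and for Xbp1 1.24 to 7.00. Derl3 was below 1 only within counting error in macrophages of labelled heart TIL (4 UMIs, 4.46 expected) and liver parenchymal (10, 11.5 expected). In neutrophils of labelled heart TIL, liver parenchymal and labelled liver TIL, Mzb1 was at 0.40, 0.32 and 0.49. Derl3 was at 1.12, 0.28 and 1.76 there, from 1, 1 and 3 UMIs. Igkc itself reached 2254 CPM in T cells of labelled heart TIL, 1530 in liver parenchymal and 11610 in labelled liver TIL. The gate of at most 1 Jchain UMI on these classes also selects on plasma cell RNA, so that the ratios do not measure free RNA. The part of free RNA in the Mzb1 and Derl3 UMIs of other classes was not tested further.

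**Figure D4:**
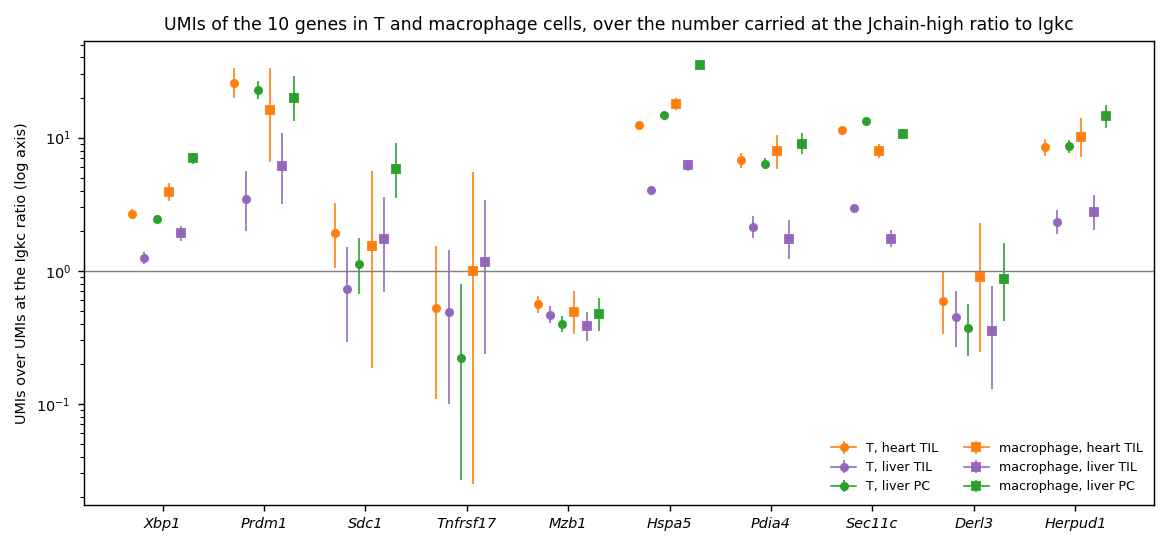
UMIs of each gene in T cells (circles) and macrophages (squares) of 3 libraries, divided by the UMIs expected at the ratio to Igkc seen in Jchain-high cells, on a log axis; bars are exact Poisson 95% intervals of the UMIs. Mzb1 lies at 0.38 to 0.56, under the line at 1, and Hspa5 at 4.03 to 35.0.

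The gate at 5 Jchain UMIs cut through a graded range. Just inside it, at 5 UMIs, the 10 genes together reached 2241 CPM in labelled heart TIL (4 cells), 2291 in liver parenchymal (14 cells) and 2111 in labelled liver TIL (242 cells). Just outside, at 4 UMIs, they reached 2971 (10 cells), 1584 (25 cells) and 1918 (515 cells). Cells with no Jchain UMI were at 1216, 991 and 1423 CPM. The sum was higher in each step above the gate, from 7748 to 10039 and 12981 CPM in labelled heart TIL for 5 to 9, 10 to 19 and at least 20 Jchain UMIs, from 3588 to 7198 and 11466 in liver parenchymal, and from 2447 to 7821 and 11977 in labelled liver TIL.

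In labelled liver TIL, 526 of the 981 Jchain-high cells held 5 to 9 Jchain UMIs, against 20 of 94 and 34 of 124 in the other libraries. Mzb1 was at 512 CPM in those cells, against 3986 in the cells with at least 20 Jchain UMIs. At the upper end the libraries were close, with Mzb1 at 4250, 4195 and 3986 CPM and the 10 genes at 12981, 11466 and 11977. Hspa5 covered a narrower range, from 565 to 1316 CPM in labelled liver TIL.

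**Figure D5:**
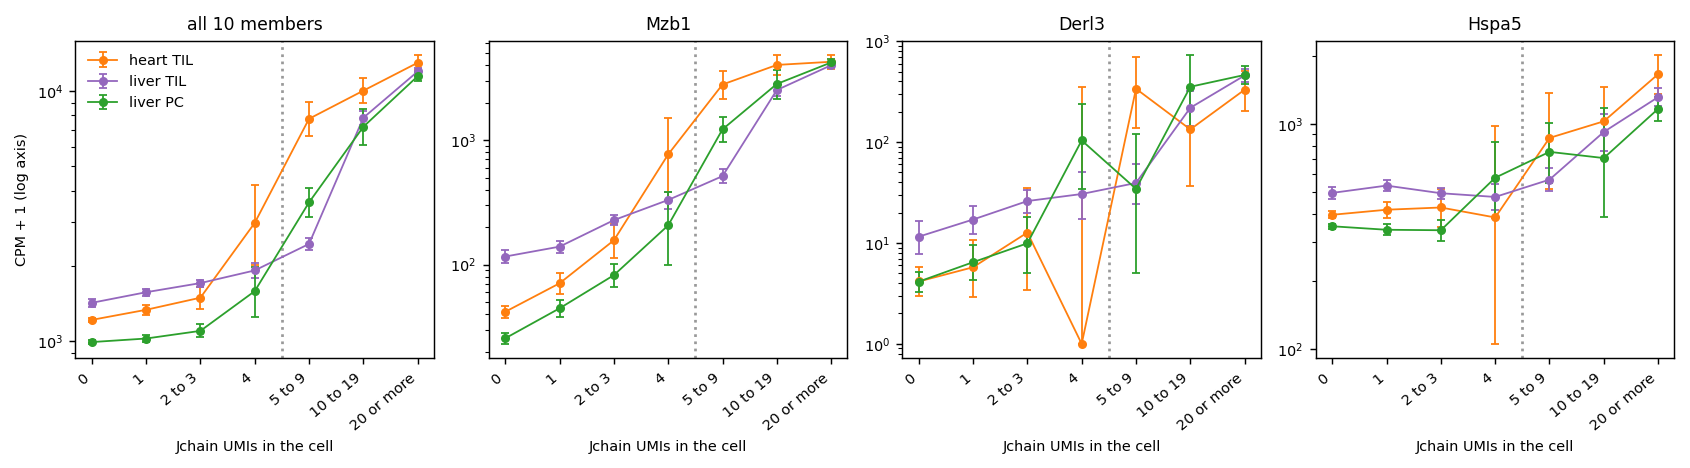
CPM + 1 on a log axis of all 10 genes together, Mzb1, Derl3 and Hspa5 in cells grouped by their Jchain UMIs (x axis) in 3 libraries as labelled; bars are exact Poisson 95% intervals and the dotted line is the gate at 5 UMIs. The sum of the 10 genes lies between 991 and 1423 CPM at 0 Jchain UMIs and between 11466 and 12981 at 20 or more, and heart TIL is the highest of the 3 at 5 to 9.

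Between libraries, a gene was called different where Jchain-high levels differed more than 2-fold with at least 10 UMIs, as a description without a test. Of the 10 genes in 3 pairs of libraries, this held for Sdc1 alone, higher in liver parenchymal than in labelled liver TIL by 1.01 on the log2 scale (counting interval 0.31 to 1.69), where 12.0% of 7377 genes were higher and 14.0% lower. The Sdc1 difference was 0.98 (0.28 to 1.67), no longer past 2-fold, with immunoglobulin UMIs left out of the total, and 0.37 (-0.36 to 1.09) with a gate of 10 Jchain UMIs. The log2 difference of Mzb1 in labelled liver TIL from labelled heart TIL was -0.94 with the gate at 5 (-1.09 to -0.79) and -0.20 with the gate at 10 (-0.37 to -0.04). For Xbp1 the values were -0.82 and -0.19. None of the 10 genes was past 2-fold between liver parenchymal and labelled heart TIL, where 15.5% of genes were higher and 6.14% lower, or between labelled liver TIL and labelled heart TIL (21.9% and 9.49%).

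In blood and kidney, Jchain-high cells were too few for a class. The 4 cells of heart PBMC held 25 Xbp1, 15 Mzb1, 20 Sec11c and 5 Hspa5 UMIs, and the 3 cells of liver PBMC 5, 10, 8 and 1. Of the 2 cells in kidney PBMC, the sums were 5 Mzb1, 9 Sec11c and 2 Tnfrsf17 UMIs with no Xbp1 or Hspa5. The 2 cells of kidney TIL held 3 Mzb1 UMIs, 2 of Hspa5 and 1 each of Xbp1 and Derl3. Over all cells of a library, Mzb1 ranged from 2.70 CPM in kidney TIL and 7.63 in kidney PBMC to 392 in labelled liver TIL. In such totals, fewer cells of a type and less RNA per cell cannot be told apart.

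Plasmablasts divide while plasma cells do not. Jchain-high cells with at least 2 UMIs of 15 cell cycle genes, called cycling here, were compared with the rest. They made up 45 of 94 in labelled heart TIL, 72 of 124 in liver parenchymal and 178 of 981 in labelled liver TIL, and were deeper (median UMIs 1421 against 818, 2485 against 1552 and 1200 against 812). No background share was measured at equal depth, and the part of depth and of mixed wells in this split was not tested. Of the 8 genes tested by edgeR, none was called higher or lower (1.39% and 3.42% of 1872 genes), 1 had an unadjusted p under 0.05, and DESeq2 gave 0 by either measure. Among all 1872 genes, 314 had an unadjusted p under 0.05 by edgeR. With cycling taken from 1 UMI, 5 of the 8 genes had one (226 of all 2091), from 3 UMIs 0 of 8 (262 of 1746) and without labelled liver TIL 2 of 7 (120 of 1146), and none was called in any of these. The gene with an unadjusted p under 0.05 at 2 UMIs was Xbp1, at -0.34 on the log2 scale (standard error 0.16, adjusted p = 0.257). Hspa5 differed by 0.01 (0.16) and Sec11c by -0.01 (0.17). In labelled liver TIL by itself, Sec11c was higher in cycling cells by 0.53 (counting interval 0.37 to 0.70). It was at 0.09 (-0.29 to 0.48) in labelled heart TIL and -0.11 (-0.38 to 0.18) in liver parenchymal, and this difference between libraries was not tested.

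Jchain-high cells were also compared by the heavy chain class that dominated them. Igha led in 44 cells of labelled heart TIL, 44 of liver parenchymal and 889 of labelled liver TIL, Ighm in 25, 31 and 7, and genes of the Ighg group in 23, 43 and 57. A class could lead from 3 UMIs of its heavy chain genes, and no background share was measured in other cell classes. In labelled liver TIL, T cells held 1.90% immunoglobulin UMIs, and 526 of the 981 Jchain-high cells held 5 to 9 Jchain UMIs. The part of free RNA in these counts was not tested. With 2 libraries in the fit, none of 7 genes tested was called between Igha and Ighm cells by edgeR or DESeq2 (0.614% of 977 genes higher and 0.512% lower by edgeR). Mzb1 alone had an unadjusted p under 0.05 by edgeR, at -0.47 (standard error 0.20, adjusted p = 0.357), as did 91 of the 977 genes, and none of the 7 did by DESeq2. Between Ighg and Ighm cells none of 7 was called (0.435% and 1.41% of 919 genes), and none had an unadjusted p under 0.05 by either tool.

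The pattern of each gene over the 25 sums was compared with that of all other genes that passed the filter by Pearson correlation of log2(CPM + 1), as a description, since sums of 1 library share their suspension. The closest were Edem2 for Xbp1 (r = 0.86), Igkc for Mzb1 (0.90), Fkbp2 for Hspa5 (0.88), Sel1l for Pdia4 (0.87), Pycr1 for Sec11c (0.89), Eaf2 for Derl3 (0.91), Prg2 for Sdc1 (0.91), Derl3 for Tnfrsf17 (0.90), Hes1 for Prdm1 (0.86) and Csnk1a1 for Herpud1 (0.90). Among the 10 genes, correlations ran from 0.15 between Prdm1 and Pdia4 to 0.90 between Tnfrsf17 and Derl3. Herpud1 was at 0.36 to 0.55 with the other 9.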

How the data were processed

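Microwell-seq count tables of 8 libraries were used, each holding raw UMI counts per gene and barcode as deposited. The authors discarded reads with low barcode quality, aligned with STAR to GRCm38 (bcl2fastq and STAR are named in the submitters' processing notes), removed multi-aligned reads, tagged genes by a GENCODE annotation whose release is not given in the sources used here, and merged near-identical UMIs within a gene by the Drop-seq tools. Removal of multi-aligned reads can lower immunoglobulin and other repeated genes.

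Cells with at least 500 UMIs were grouped by gate genes. The T and neutrophil gates and the rule that a cell passes a single gate were set here. Doublets were not called. UMIs were summed per library and class, where at least 20 cells were present, and fitted in edgeR 4.0.16 (R 4.3.3) with filterByExpr, TMM scaling, glmQLFit and glmQLFTest and a library term, over 25 sums. The gate genes were left out of the tested table. Calls were made at a Benjamini-Hochberg adjusted p under 0.05 over all genes tested. The library term pairs classes that came from the same cell suspension. P-values measure the spread between these libraries. Levels are CPM, counts per 1e6 of the summed UMIs, and shares and intervals were computed with scipy 1.17.1 (exact Poisson or binomial, 95%, counting error only; a count of 0 is given a limit of 3 counts). Library depth was 3418722 to 19171264 UMIs. Scripts were tested on simulated data. DESeq2 1.42.0, other gates, filters and scalings, and each library left out were tried as alternatives.

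The genes and lists were chosen with earlier results of these data known. Named genes were the 10, the gate genes, markers of the cell type and organ checks (Pax5, Fcer2a, Alb and Acta1, the ones given being chosen after their values were seen), at most 4 genes of lowest p in each list and contrast, and the 3 genes most correlated with each of the 10, of which the first is given. H2-Aa, Mcfd2, Cd38 and Cxcr4 were named after their values were seen.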

Additional observations from a re-analysis of the deposited data

Results flagged for a closer look

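Barcodes with under 500 UMIs were left out of the comparisons, yet some held at least 5 Jchain UMIs together with UMIs of Mzb1, above the limit of 3 counts. There were 13 Mzb1 UMIs in 4 such barcodes of labelled heart TIL, 57 in 49 barcodes of labelled liver TIL and 4 in 3 barcodes of kidney TIL.

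In cells with cell cycle UMIs against the other Jchain-high cells, Mzb1 was higher by 0.25 on the log2 scale in labelled liver TIL (counting interval 0.10 to 0.39) and lower in liver parenchymal (-0.20, -0.39 to -0.01). In labelled heart TIL it was -0.25 (-0.53 to 0.03). Counting intervals of opposite sign drew attention to this gene. The difference between libraries was not tested, since each has 1 sum per state.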

How the results depend on the processing

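The number of the 10 genes called higher, of those that passed the filter on low counts (8 to 10), stayed within 1.5 times that reported under each alternative tried for T cells (8 to 10), macrophages (8 to 10) and neutrophils (7 to 10; 7 without liver parenchymal, where Prdm1, Sdc1 and Tnfrsf17 were not called). Against B cells it was 3 with DESeq2, 9 with cells of several gates kept, 8 with B cells by Cd79a, Cd79b and Jchain alone (chosen after seeing the data) and 2 to 6 when each library was left out. None of the 10 was called lower in any of these. The B cells of the alternatives with 9 and 8 included cells that also pass another gate.

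All genes called higher against B cells numbered 93, and 44 with DESeq2, 39 without TMM, 152 with Jchain at least 1% of UMIs, 267 with cells of several gates kept, 195 with B cells by Cd79a, Cd79b and Jchain alone, 58 in tissue libraries only and 19 to 131 with each library left out. Against B cells 29 were lower, and 175 with B cells by Cd79a, Cd79b and Jchain alone, 104 with cells of several gates kept, and 69 without TMM and 64 with DESeq2, where the median log2 difference of all genes moved from 0.39 to -0.12 and -0.05. Against T cells 324 were higher and 236 lower, and 262 and 663 without TMM and 339 and 114 with DESeq2. Against macrophages 729 and 752 became 508 and 1070 without TMM. The library was used as a block, and without it (no library term) 179 genes were higher than in T cells, 206 than in macrophages and 4 of the 10 than in B cells. The genes lower than in T cells fell from 236 to 9 without it, and those lower than in macrophages from 752 to 18. With each library left out, 185 to 380 were higher than in T cells, 311 to 752 than in macrophages and 184 to 732 than in neutrophils. Without liver parenchymal, the genes lower fell from 236 to 43 against T cells, from 752 to 321 against macrophages and from 780 to 410 against neutrophils. Against macrophages, 417 were higher without Jchain-high cells that carry other gate genes, 358 with a gate of 10 as well and 366 without both TIL libraries. Against neutrophils the values were 334 with that pair of changes, 267 from 1000 UMIs per cell, 310 without a filter and 276 without both TIL libraries.

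In cycling cells, 26 genes were higher and 64 lower, and 1 and 0 with DESeq2, 7 and 11 from 1 UMI, 14 and 36 from 3 UMIs, and 3 to 13 and 9 to 39 with each library left out. Small log2 differences there changed sign: Hspa5 to -0.11 from 1 UMI and between -0.11 and 0.090 with each library left out, Pdia4 between -0.35 and 0.032 and Sec11c between -0.23 and 0.20 with each library left out, Sec11c to 0.057 from 3 UMIs, and Sdc1 to -0.042 with DESeq2 and -0.33 from 1 UMI. In Ighg against Ighm cells, Sec11c changed to -0.011 with DESeq2. For Igha, 6 genes higher and 5 lower became 0 and 0 with DESeq2 and 3 lower without immunoglobulin genes. For Ighg, 4 and 13 became 0 and 1 with DESeq2 and 2 and 8 without immunoglobulin genes.

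The 10 genes together were at 11212, 9544 and 6621 CPM in Jchain-high cells of labelled heart TIL, liver parenchymal and labelled liver TIL. They were at 12004, 11097 and 10941 with a gate of 10 Jchain UMIs, 12334, 12029 and 10643 with Jchain at least 1% of UMIs, 13690, 13609 and 9769 without cells that carry other gate genes, 14077, 14461 and 12384 with a gate of 10 as well, 14102, 11457 and 8107 without immunoglobulin UMIs, and 7126 in labelled liver TIL without shared barcodes. Mzb1 was found in 85.1%, 88.7% and 57.5% of Jchain-high cells without thinning. The causes of these changes were not tested.

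The contrast with B cells could not be fitted with 2 classes alone or from 1000 UMIs per cell, and the heavy chain comparison could not be fitted with a library left out. The gate of 10 combined with leaving out cells that carry other gate genes, and leaving out shared barcodes, were chosen after seeing the data. Rare genes (Prdm1, 40 UMIs in Jchain-high cells) are limited by depth.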
